A study of Homo sapiens with 4 samples.

Results

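AP-1 is a dimeric transcription factor, and its subunits were followed here as 10 genes selected by symbol, namely JUN, JUNB and JUND of the JUN family, FOS, FOSB, FOSL1 and FOSL2 of the FOS family, and the partner genes ATF2, ATF3 and BATF3. All 10 were found among the 23362 genes of the deposited table, each under a symbol listed once. MKN28 is a human gastric adenocarcinoma cell line, and the 4 groups were MKN28 cells infected with a retroviral tetracycline-inducible (tet-on) vector, selected with G418 and puromycin, and carrying luciferase (Luc, the control), KIAA1324 WT, KIAA1324 3NQ, in which the asparagines of the putative N-glycosylation sites are replaced with glutamine, or KIAA1324 ΔTM, which lacks the transmembrane domain. Each group was 1 library of poly(A) RNA, so that differences could not be set against a spread between replicates and were not tested. The doxycycline treatment of the cells used for RNA is not given in the sources used here.

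JUN proteins pair with each other or with FOS proteins through a leucine zipper, whereas FOS proteins need a JUN partner, and the dimers bind a short palindromic DNA element. ATF2, ATF3 and BATF3 can join JUN proteins in such dimers, and JUN-ATF dimers prefer the longer cAMP response element. Many of these genes are immediate-early genes, transcribed within minutes of a growth or stress signal, and JUN is activated by phosphorylation through the kinase JNK. The comparison of these libraries bears on the AP-1 subunits because the study named JUN in a network inferred from genes upregulated exclusively in WT. What it followed by assay was JNK, through its phosphorylation and an inhibitor, in cells expressing KIAA1324.

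Expression was given by the authors as FPKM, the number of fragments scaled to transcript length and library size, which allows levels to be compared between genes. The depth of each library is unknown and no counting interval could be given. KIAA1324 was at an FPKM of 2.86 in Luc, 11185 in WT and 8197 in 3NQ, but was listed at 0 in the ΔTM library, which is therefore called the library labelled ΔTM. The epithelial origin was visible in all libraries, where 8 of 8 epithelial markers had an FPKM of at least 144. Their summed FPKM ranged from 8327 in WT to 14064 in Luc, mainly through KRT8 (4510 in WT and 8501 in Luc), and the part of this in the AP-1 differences was not tested. Of the fibroblast markers, 5 of 6 were below 1 in all libraries, with COL1A1 the exception, and of the leukocyte markers 5 of 6, with CD68 the exception. The summed FPKM of the fibroblast list ranged from 12.5 to 15.5 and that of the leukocyte list from 4.63 to 5.95. Log2 ratios were computed on FPKM + 1 for the 11769 genes that reached an FPKM of 1 in any library, and a gene was called higher or lower at 1.5-fold, a log2 ratio of 0.58. Of the 10 AP-1 genes, 9 passed this filter, and BATF3 did not.

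The promoters of the members give the elements that AP-1 dimers could meet at these genes. RefSeq sequences were matched for 7 of the 10 members, and none was matched for FOSL1, ATF2 or BATF3. The 250 bases before each annotated start were searched on both strands for the AP-1 element (TGAGTCA, or TGACTCA on the other strand), the cAMP response element (TGACGTCA), the AP-1-like element TGACATCA, which reads TGATGTCA on the other strand, and the CArG box bound by serum response factor. JUN and ATF3 held TGACATCA, from 67 to 60 bases before the start of JUN and from 123 to 116 bases before the first of 2 listed starts of ATF3. This element occurs in 2.37% of 35116 promoter windows of that length. JUND held TGACGTCA from 200 to 193 bases before its start, an element of 1.65% of the windows. FOS held none of the 4 motifs in this window, and neither did JUNB, FOSB, FOSL2 or the window of the second ATF3 start. Sites that differ from these letters, or lie further upstream, were not searched for, so that no match does not mean no element. The AP-1 element occurs in 4.20% and the CArG box in 1.16% of the windows. The motifs were chosen after the sequences were seen, so that a match beside these shares is no test of the members. A match is a description of these letters, and which start the cells use was not tested. Whether a match goes with a call in WT was not tested either. The windows of the 3 members with a match and of FOS are shown in GRCh38.p14 coordinates, 5′ to 3′ along the gene, with the matched element in capitals. They lie at chr1:58784048-58784297 on the minus strand (JUN), chr1:212565157-212565406 on the plus strand (ATF3), chr19:18281623-18281872 on the minus strand (JUND) and chr14:75278578-75278827 on the plus strand (FOS).
JUN: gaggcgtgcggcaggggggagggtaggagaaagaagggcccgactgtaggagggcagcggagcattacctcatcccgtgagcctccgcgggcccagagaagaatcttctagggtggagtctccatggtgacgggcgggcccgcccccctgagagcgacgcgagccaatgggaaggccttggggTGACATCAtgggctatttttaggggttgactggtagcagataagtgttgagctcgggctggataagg
ATF3: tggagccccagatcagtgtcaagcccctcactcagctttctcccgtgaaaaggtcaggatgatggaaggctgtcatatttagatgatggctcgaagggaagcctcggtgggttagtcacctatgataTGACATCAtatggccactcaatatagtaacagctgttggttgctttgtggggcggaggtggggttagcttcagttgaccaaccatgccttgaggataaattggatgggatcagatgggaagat
JUND: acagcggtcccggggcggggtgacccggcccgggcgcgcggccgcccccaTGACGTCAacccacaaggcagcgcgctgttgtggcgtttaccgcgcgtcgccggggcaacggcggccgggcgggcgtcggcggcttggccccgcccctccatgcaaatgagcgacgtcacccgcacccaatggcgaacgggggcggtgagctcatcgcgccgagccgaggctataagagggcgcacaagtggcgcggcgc
FOS: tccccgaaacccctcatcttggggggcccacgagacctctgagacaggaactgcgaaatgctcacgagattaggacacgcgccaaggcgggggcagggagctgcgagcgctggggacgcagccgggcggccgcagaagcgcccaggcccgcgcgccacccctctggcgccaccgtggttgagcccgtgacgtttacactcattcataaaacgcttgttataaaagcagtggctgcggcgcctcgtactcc

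In control cells, FOSL1 was the most abundant member and the FOS family held most of the AP-1 RNA. In Luc, the FPKM was 79.5 for FOSL1, 38.0 for JUNB, 36.4 for FOSL2, 33.7 for JUND and 32.6 for FOS. The remaining members were ATF2 at 22.3, JUN at 14.95, ATF3 at 12.8, FOSB at 2.02 and BATF3 at 0.205. FOSL1 was the highest, followed by JUNB, and FOSB and BATF3 were the lowest in all 4 libraries. With 1 library each, there is no spread against which neighbours such as JUND and FOS could be told apart. In WT, the middle of the order differed, since JUN ranked 5 instead of 7 and FOS ranked 8 instead of 5.

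**Figure D1:**
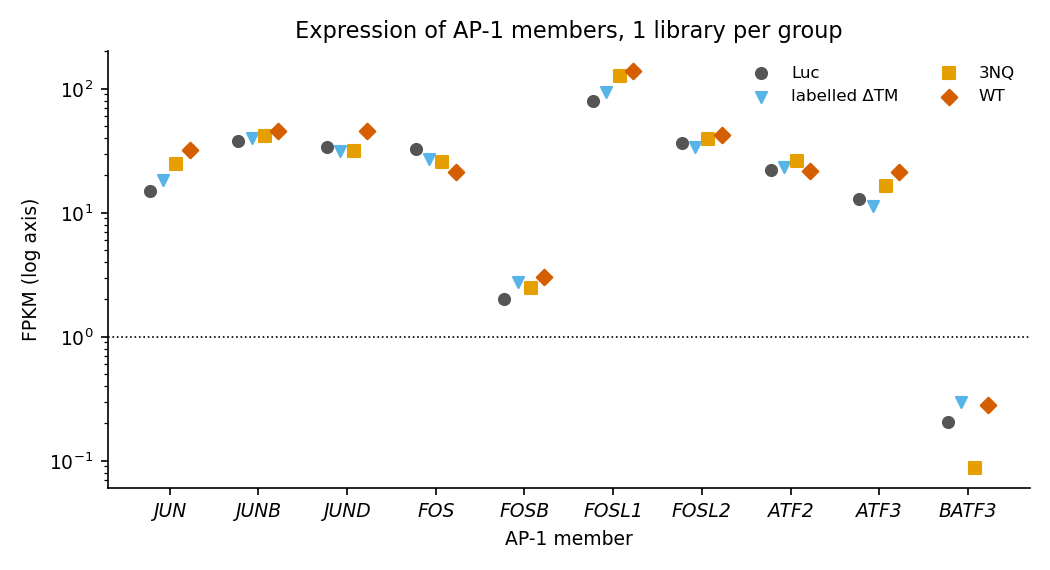
FPKM (log axis) of each AP-1 member (x axis) in the Luc library (circles), the library labelled ΔTM (triangles), 3NQ (squares) and WT (diamonds), with the filter at an FPKM of 1 as a dotted line. FOSL1 is the highest member in each library and BATF3 is below 1 in all of them.

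Compared to Luc, JUN, FOSL1 and ATF3 were called higher in WT and FOS was called lower. These were 3 higher and 1 lower of 9 members, where 3.36% of all genes passing the filter were called higher and 3.34% lower. The members were chosen with earlier results of these data known, so that such shares are given for scale only. In 3NQ, JUN and FOSL1 were called higher and none lower, where 1.77% of all genes were called higher and 2.57% lower. No member was called in the library labelled ΔTM, where 1.54% of all genes were called higher and 1.57% lower. The median log2 ratio of the 9 members was 0.065 in the library labelled ΔTM, 0.20 in 3NQ and 0.43 in WT, beside −0.060, −0.038 and −0.0049 for all genes. These 3 comparisons share the Luc library, so that they are not independent of each other. In bulk RNA, a difference in every cell and a difference in some of the cells cannot be told apart, and neither can a group and its single library.

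**Figure D2:**
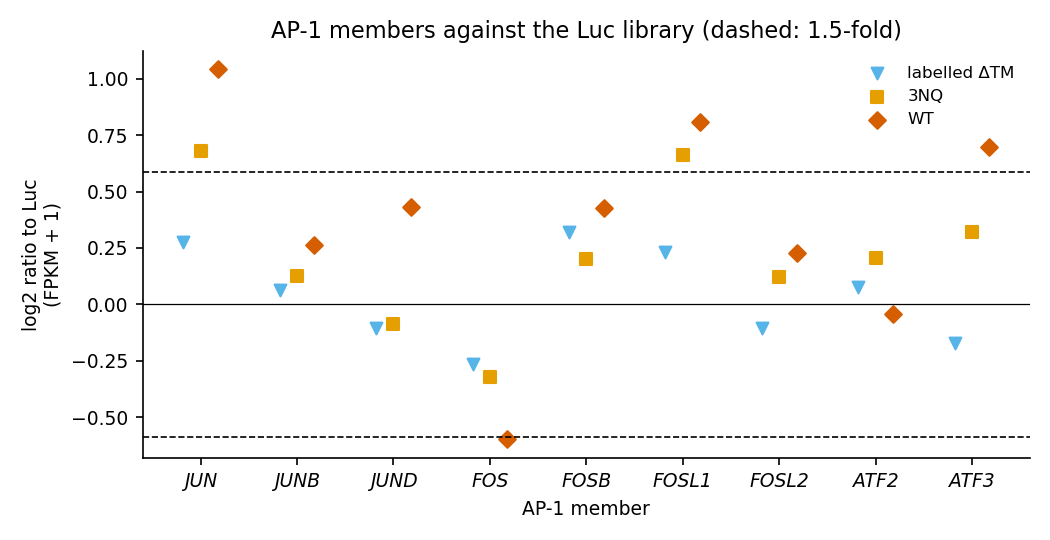
Log2 ratio to Luc of FPKM + 1 (y axis) for the 9 AP-1 members that passed the filter (x axis), with triangles for the library labelled ΔTM, squares for 3NQ, diamonds for WT and dashed lines at 1.5-fold. JUN and FOSL1 lie above the upper line in WT and 3NQ, ATF3 in WT alone, and FOS lies just under the lower line in WT.

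The JUN family supplies the subunits that every classical AP-1 dimer needs. JUN (ENSG00000177606, GRCh37 chromosome 1 from 59246465 to 59249785, a single-exon gene) encodes c-Jun, the main substrate of JNK in this family. Its FPKM was 14.95 in Luc, 18.3 in the library labelled ΔTM, 24.6 in 3NQ and 31.8 in WT. It was thus lowest in Luc and highest in WT, and the span from lowest to highest, 2.13-fold, was the widest of the 9 members. The log2 ratio to Luc was 1.04 in WT, and 66 of the 11769 genes had a higher ratio. In 3NQ the log2 ratio of JUN was 0.68, with 145 genes higher, and in the library labelled ΔTM it was 0.28, with 779 genes higher.

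JUNB (ENSG00000171223, chromosome 19 from 12902310 to 12904124, single-exon) encodes a JUN protein that activates many targets more weakly than c-Jun. Its FPKM was 38.0 in Luc, 39.8 in the library labelled ΔTM, 41.5 in 3NQ and 45.8 in WT, the same order as JUN over a narrower range. WT did not reach the threshold, with a log2 ratio of 0.26. JUND (ENSG00000130522, chromosome 19 from 18390563 to 18392432, single-exon) encodes the JUN protein that is expressed most evenly in resting cells. Its FPKM was 33.7 in Luc, 31.3 in the library labelled ΔTM, 31.7 in 3NQ and 45.8 in WT. WT alone stood apart for JUND, and the other 3 libraries lay within 2.42 FPKM of each other. The log2 ratio of JUND to Luc was −0.10 in the library labelled ΔTM, −0.087 in 3NQ and 0.43 in WT.

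The FOS family gives the partners of the JUN proteins, and its members went in different directions. FOSL1 (ENSG00000175592, chromosome 11 from 65659520 to 65668044) encodes FRA-1, a FOS protein without the strong transactivation domain of c-Fos that is common in epithelial tumor cells. Its FPKM was 79.5 in Luc, 93.6 in the library labelled ΔTM, 126 in 3NQ and 140 in WT. WT and 3NQ were high and the other libraries low. The log2 ratio was 0.81 in WT, with 161 genes higher, 0.66 in 3NQ, with 158 genes higher, and 0.23 in the library labelled ΔTM.

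FOS (ENSG00000170345, chromosome 14 from 75745477 to 75748933) encodes c-Fos, the best known immediate-early protein. Its FPKM was 32.6 in Luc, 27.0 in the library labelled ΔTM, 25.9 in 3NQ and 21.2 in WT, the reverse of the order of JUN. The log2 ratio in WT was −0.60, only just past the threshold, and 359 genes had a lower ratio. In 3NQ it was −0.32 and in the library labelled ΔTM −0.26, neither of them called. With a pseudocount of 5, the ratio of FOS in WT was −0.52 and that of ATF3 was 0.57, and neither was called. The ratio of JUN in 3NQ was 0.57 under that pseudocount, so that FOSL1 was then the only member called in 3NQ. A 2-fold threshold left JUN as the only member called in WT.

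FOSL2 (ENSG00000075426, chromosome 2 from 28615315 to 28640179) encodes FRA-2. Its FPKM was 36.4 in Luc, 33.7 in the library labelled ΔTM, 39.7 in 3NQ and 42.7 in WT, and no ratio reached 1.5-fold. FOSB (ENSG00000125740, chromosome 19 from 45971253 to 45978437), another immediate-early gene, was low throughout, with an FPKM of 2.02 in Luc, 2.77 in the library labelled ΔTM, 2.47 in 3NQ and 3.05 in WT. On the FPKM without a pseudocount, FOSB was 1.51-fold higher in WT than in Luc, but its log2 ratio on FPKM + 1 was 0.43. FOSB and JUNB lie inside the GENCODE spans of ERCC1 and HOOK2 on the opposite strand. FOSL2 overlaps FOSL2-AS1 on the opposite strand and another lncRNA gene on its own strand. ATF2, ATF3 and BATF3 overlap further non-coding genes. Since the sources used here do not state a stranded library, reads of genes that overlap on opposite strands could not be separated.

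ATF2, ATF3 and BATF3 stand outside the JUN and FOS families. ATF3 (ENSG00000162772, chromosome 1 from 212738676 to 212794119) encodes a stress-induced factor. Its FPKM was 12.8 in Luc, 11.3 in the library labelled ΔTM, 16.3 in 3NQ and 21.4 in WT. WT was highest, and the library labelled ΔTM was lowest, below Luc. The log2 ratio was −0.17 in the library labelled ΔTM, 0.32 in 3NQ and 0.70 in WT, where 246 genes had a higher ratio. BATF3 (ENSG00000123685, chromosome 1 from 212859760 to 212873327), known for its role in dendritic cells, lies 65.6 kb from ATF3 and had an FPKM of 0.205 in Luc, 0.301 in the library labelled ΔTM, 0.0875 in 3NQ and 0.284 in WT. No ratio is read from values this low. ATF2 (ENSG00000115966, chromosome 2 from 175936978 to 176033110), a JNK and p38 substrate, had an FPKM of 22.3 in Luc, 23.6 in the library labelled ΔTM, 25.9 in 3NQ and 21.6 in WT. It was the only member that was highest in 3NQ, and its log2 ratio to Luc ranged from −0.044 in WT to 0.21 in 3NQ.

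Summed over the 10 genes, AP-1 subunit RNA was highest in WT. The summed FPKM was 273 in Luc, 282 in the library labelled ΔTM, 334 in 3NQ and 374 in WT, and WT was 1.37-fold over Luc. Most of the difference between Luc and WT was FOSL1 alone, at 79.5 in Luc and 140 in WT, and FOS and ATF2 were lower in WT. The sum is therefore no measure of the family as a whole. The FOS family made up 55.2% of this sum in Luc, 55.8% in the library labelled ΔTM, 58.1% in 3NQ and 55.4% in WT, so that its share varied little. Its makeup varied more. FOSL1 was 52.8% of FOS family FPKM in Luc, 59.6% in the library labelled ΔTM, 64.97% in 3NQ and 67.6% in WT. FOS was 21.7%, 17.2%, 13.3% and 10.3% of it in the same order. In the JUN family, JUN was 17.2% of the FPKM in Luc, 20.5% in the library labelled ΔTM, 25.1% in 3NQ and 25.8% in WT. The ratio of JUN to FOS was 0.458 in Luc, 0.678 in the library labelled ΔTM, 0.949 in 3NQ and 1.4998 in WT. The ratio of FOSL1 to FOS was 2.44, 3.46, 4.87 and 6.60 in that order. The ratio of FOSL1 to JUN had a narrower range, from 4.40 in WT to 5.31 in Luc. JUN and FOSL1 were called higher and FOS lower in WT, so that the ratios to FOS restate these calls and are no further result. The ratios are of FPKM and carry no interval, and protein levels were not measured by this assay.

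**Figure D3:**
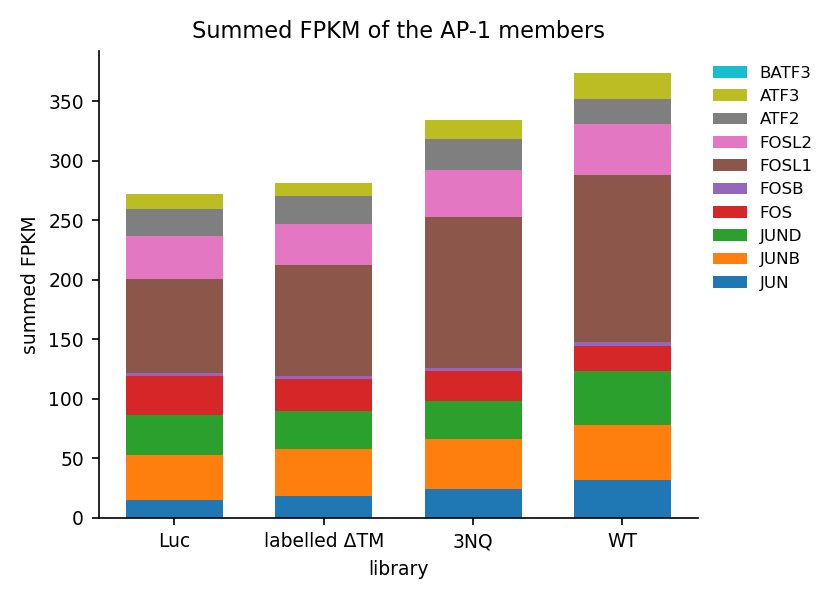
Summed FPKM (y axis, from 0) of the 10 AP-1 members in each library (x axis), stacked by gene. The sum is 273 in Luc and 374 in WT, and the FOSL1 block (brown) widens while the FOS block (red) narrows from Luc to WT.

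Of the 9 members, 7 were highest in WT, with FOS and ATF2 the exceptions. The share of all genes that were highest in WT was not computed, so that this count has no background and is no result about the members. Shares for single pairs of libraries do not replace it. Pair by pair, 49.1% of all genes passing the filter were above Luc in WT, 54.8% above 3NQ and 57.0% above the library labelled ΔTM. JUN, JUNB and FOSL1 shared the order of Luc, library labelled ΔTM, 3NQ and WT from lowest to highest, 3 of 9 members where 6.20% of all genes passing the filter had this order. FOS had the exact reverse, 1 of 9 members where 8.21% of all genes had it. The order counted is the one seen in JUN itself, and its reverse is the one seen in FOS. A count of members with either order is therefore no test, and the shares are given for scale only. The order takes no account of the size of the steps, and for JUNB the steps were small.

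Fewer members were called when WT was set against 3NQ or the library labelled ΔTM than against Luc. No member reached 1.5-fold between WT and 3NQ, where 2.89% of all genes were called higher in WT and 1.58% lower. The log2 ratio of WT to 3NQ was largest for JUND, at 0.52, followed by 0.37 for ATF3 and 0.36 for JUN, and for FOSL1 it was 0.15. Against the library labelled ΔTM, JUN (0.77) and ATF3 (0.87) were called higher in WT and none lower, where 4.25% of all genes were called higher and 2.91% lower. FOSL1 (0.576) and JUND (0.535) were just below the threshold of 0.585 in that comparison. No member was called between 3NQ and the library labelled ΔTM, where 1.46% of all genes were called higher in 3NQ and 1.88% lower. ATF3 (0.49), FOSL1 (0.43) and JUN (0.41) had the highest log2 ratios there. As an alternative control, 3NQ and the library labelled ΔTM were averaged. The log2 ratio of WT to this average was 0.55 for JUN, 0.35 for FOSL1 and −0.31 for FOS, all short of the threshold. Of the 4 members called in WT against Luc, ATF3 alone stayed called, at 0.599 and just past 0.585. Against 3NQ alone, ATF3 was not called (0.37).

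Other leucine zipper genes that can pair with AP-1 subunits were a list of 21, of which 19 passed the filter. In WT, 2 of the 19 were called higher and none lower, where 3.36% of all genes were called higher and 3.34% lower. The list's median log2 ratio was −0.10 in the library labelled ΔTM, 0.083 in 3NQ and 0.11 in WT. The medians of all genes were −0.060, −0.038 and −0.0049 in the same order. CREB5, a relative of ATF2, had an FPKM of 2.67 in Luc, 2.76 in the library labelled ΔTM, 3.99 in 3NQ and 6.99 in WT, and its log2 ratio in WT was 1.12. DDIT3, which encodes the stress factor CHOP, had an FPKM of 10.04 in Luc, 19.9 in the library labelled ΔTM, 20.1 in 3NQ and 21.1 in WT. Thus CREB5 was high in WT mainly, whereas DDIT3 was called higher in all 3 libraries. In 3NQ, 3 of the 19 were called higher, namely DDIT3, ATF5 and BATF2, and BACH2 was called lower (−0.89). Of all genes, 1.77% were called higher in 3NQ and 2.57% lower. The call of BATF2 rests on low values, an FPKM of 0.725 in Luc against 1.76 in 3NQ. MAFF and MAFK, small MAF proteins without an activation domain, each had a log2 ratio of 0.43 in WT.

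Of the genes upstream of AP-1, 1 was called in WT and none in the other libraries against Luc. The list of 23 kinase and serum response factor genes held 22 that passed the filter. Of all genes, 3.36% were called higher in WT and 3.34% lower, and 1 call among 22 is near these shares. The list's median log2 ratio was −0.11 in the library labelled ΔTM, −0.012 in 3NQ and −0.0031 in WT. The medians of all genes were −0.060, −0.038 and −0.0049 in the same order. After rescaling by the median of ratios, the list's medians in WT and 3NQ were 0.0052 and 0.025, so that no direction is given for the list. MAP2K6, a kinase that activates p38, was the only one called in WT, with 3.84 FPKM in Luc against 1.80 in WT and a log2 ratio of −0.79. The JNK genes MAPK8 and MAPK9 were at 32.4 and 49.4 in Luc and at 27.5 and 45.6 in WT, and MAPK10 did not pass the filter. These are RNA levels, and kinase activity was not measured by this assay.

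Genes commonly described as AP-1 targets were less uniform. Of the 30 on the list, 19 passed the filter, and the 11 others included the collagenase genes MMP1 and MMP13. In WT, 4 of the 19 were called higher and none lower, where 3.36% of all genes were called higher and 3.34% lower. In 3NQ, 2 were called higher, where 1.77% of all genes were. In the library labelled ΔTM, 1 was called higher, where 1.54% of all genes were, and a single call is near that share. IL8, which encodes a neutrophil-attracting chemokine, had an FPKM of 5.88 in Luc, 8.25 in the library labelled ΔTM, 17.8 in 3NQ and 21.4 in WT. LAMB3, a laminin chain gene, had an FPKM of 39.3 in Luc, 60.4 in the library labelled ΔTM, 83.6 in 3NQ and 87.7 in WT. Both were called higher in WT and 3NQ, as were JUN and FOSL1, and LAMB3 was also called in the library labelled ΔTM (0.61). SPRR1B, a gene of the cornified envelope, and CD44, a hyaluronan receptor gene, were called in WT alone. SPRR1B had an FPKM of 4.90 in Luc, 4.21 in the library labelled ΔTM, 3.26 in 3NQ and 8.81 in WT. CD44 had an FPKM of 0.925 in Luc, 0.816 in the library labelled ΔTM, 0.949 in 3NQ and 2.08 in WT, and its call rests on low values. Other frequently cited targets were not called, among them the cyclin gene CCND1 at 281 in Luc and 245 in WT. The median log2 ratio of the list was −0.045 in the library labelled ΔTM, 0.071 in 3NQ and 0.19 in WT. The medians of all genes were −0.060, −0.038 and −0.0049 in the same order. After rescaling by the median of ratios the list's medians were 0.017, 0.11 and 0.20, so that no direction is given for the library labelled ΔTM.

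**Figure D4:**
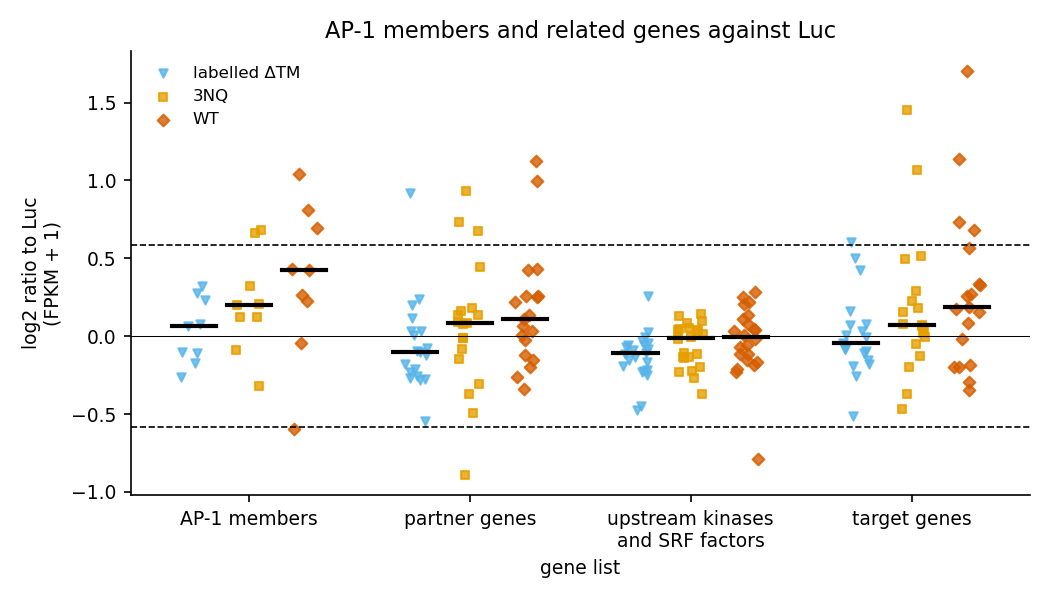
Log2 ratio to Luc of FPKM + 1 (y axis) for the AP-1 members and the 3 lists of related genes (x axis), with triangles for the library labelled ΔTM, squares for 3NQ, diamonds for WT, a thick bar at each median and dashed lines at 1.5-fold. The AP-1 medians run from 0.065 to 0.43, whereas the upstream medians lie between −0.11 and −0.0031.

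The genes whose pattern was nearest to that of JUN were found by the distance over the 3 log2 ratios to Luc, among genes that reached an FPKM of 5 in any library. They were IRAK2 (distance 0.086), PPP1R15A (0.088), RASGRP3 (0.15), APCDD1L-AS1 (0.18) and KCNK6 (0.19). PPP1R15A, which encodes the stress-induced phosphatase subunit GADD34, had an FPKM of 25.1 in Luc, 29.1 in the library labelled ΔTM, 39.5 in 3NQ and 52.8 in WT. The nearest to ATF3 were AGO4 (0.050), SLC39A13 (0.086), ACOT11 (0.088), SLC41A2 (0.11) and SLC35E1 (0.12). The distances rest on 4 libraries, with Luc shared by all 3 ratios.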

How the data were processed

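Per the labels and the study's methods, the authors removed low-quality reads, aligned the rest to GRCh37 by TopHat and ran Cufflinks 2.1.1 with Ensembl release 72 to obtain an FPKM per gene, with non-coding genes masked and corrections for multiply mapped reads and for fragment bias. The deposited FPKM values were used as they are. They hold values for APCDD1L-AS1, by its symbol an antisense gene, and which genes were masked could not be checked. The table holds no counts, so the depth per library is unknown and no interval was computed. Groups were taken from the sample titles. With 1 library per group, genes were called by a 1.5-fold threshold on log2(FPKM + 1) in place of a test, for genes that reached an FPKM of 1 in any library. Ratios at low FPKM are understated on this scale. For the 166 entries that repeat a symbol, lists took the entry of higher mean FPKM.

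The members and lists were chosen with earlier results of these data known, and the lists were written from general knowledge. Named genes were the 10 members, KIAA1324, listed genes past the threshold in WT (at most 6 per direction) and the 5 genes nearest to JUN and to ATF3. Other genes, and the promoter motifs, were chosen after their values or sequences were seen. Overlaps and exons came from GENCODE release 44 on GRCh37, promoters from RefSeq on GRCh38.p14. The code that makes the calls was tested on simulated data with known changes. Python 3.11.15, numpy 2.4.6, pandas 2.3.3 and matplotlib 3.10.9 were used. Alternatives were pseudocounts of 0.1 and 5, no filter, a minimum FPKM of 5, a 2-fold threshold, rescaling by the upper quartile or by the median of ratios, and the average of 3NQ and the library labelled ΔTM as the control.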

Additional observations from a re-analysis of the deposited data

How the results depend on the processing

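No paired analysis was possible because each group holds 1 library, and no library could be left out. Of 381 log2 ratios of members recomputed under the alternatives, 368 kept their status, 13 fell below the threshold and none reached it or reversed. Most of the 368 were not called at first, so that they had no call to lose. The 13 all came from ratios that were called, namely 4 in WT and 2 in 3NQ against Luc, and 2 in WT against the library labelled ΔTM. The alternative filters cannot change a member's ratio. The total of 381 is therefore no measure of how stable the calls are. JUND between 3NQ and the library labelled ΔTM, a ratio near 0, changed sign under both rescalings. With a pseudocount of 5, the calls against Luc numbered 2 of the 9 members in WT and 1 in 3NQ, 2 of the partner genes in 3NQ, 0 of the upstream genes and 2 of the target genes in WT, and, in the library labelled ΔTM, 0 of the target genes. In the library labelled ΔTM, 2 partner genes were called under a pseudocount of 0.1. At a minimum FPKM of 5, 0 upstream genes were called in WT, because MAP2K6 no longer passed. With a 2-fold threshold, calls against Luc were 1 member, 1 partner gene, 0 upstream genes and 2 target genes in WT, 0 members and 0 partner genes in 3NQ, and 0 partner and 0 target genes in the library labelled ΔTM, and 0 members were called between WT and that library. The lower counts under the pseudocount of 5 and the 2-fold threshold follow from their construction. Both rescalings left the member counts as they were, and the summed FPKM in WT was then 1.38 and 1.36 times that in Luc. The unknown depth limits what can be said of genes at a low FPKM, such as BATF3, FOSB, BATF2 and CD44.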
